A study of Mus musculus with 16 samples.

Results

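Gnal, Ric8b, Gnb1, Gng13, Adcy3, Pde1c, Pde4a, Rtp1, Rtp2 and Reep1 encode G protein subunits, enzymes and receptor chaperones of odorant signalling. The 10 genes were taken by name, each with its 1 probe set, from the 19572 probe sets with a gene symbol (19505 symbols) on Clariom S mouse arrays, which read RNA as fluorescence of labelled cRNA bound to gene-specific probes. The mice were of the S100a5-tauGFP strain, whose tau-GFP fusion reports S100a5, a gene that olfactory sensory neurons (OSNs) transcribe when active, and the cells came from their olfactory mucosa. The 24 mice, of both sexes and 7 to 12 weeks old, sat singly in chambers for 40 h with clean air flowing at 3.1 L/min. In the last part of that time, from 26 h on, they received pulses of 10 s every 20 min, of 2-octanone, a ketone odorant, in one set and of filtered air (vehicle) in the other. Mice were pooled by 3 into 8 pools, and dissociated cells of each pool were sorted by fluorescence. This gave 4 groups of 4 arrays: GFP+ and GFP− cells after 2-octanone, and GFP+ and GFP− cells after vehicle. Pools hide the spread between single mice, and the zygosity of the reporter is not given in the sources used here. The p-values measure the spread between pools within a group of arrays. Except where the pool is named as a block, they do not use the pairing of the 2 fractions of a pool.

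Odorant receptors in OSN cilia act through the G protein alpha subunit Golf (Gnal), which with a beta subunit (Gnb1) and a gamma subunit (Gng13) couples them to adenylyl cyclase III (Adcy3). Cyclic AMP made by this cyclase opens the ciliary cation channel, and phosphodiesterases (Pde1c in the cilia, Pde4a in the rest of the neuron) break it down. Ric8b stabilises Golf and promotes its nucleotide exchange, and Rtp1, Rtp2 and Reep1 help odorant receptors reach the cell surface in transfected cells.

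Promoter windows of 250 bases before and 50 after each annotated start were read from RefSeq (GRCm38.p6) for 8 of the 10 genes, in 14 windows. The 3 shown belong to the genes that were higher in GFP+ cells and have 1 window each. Capitals mark CCCNNGGG, the inner letters of the palindrome TCCCNNGGGA that EBF factors, transcription factors of OSNs, bind.
Ric8b, chr10:84917363-84917662, + strand: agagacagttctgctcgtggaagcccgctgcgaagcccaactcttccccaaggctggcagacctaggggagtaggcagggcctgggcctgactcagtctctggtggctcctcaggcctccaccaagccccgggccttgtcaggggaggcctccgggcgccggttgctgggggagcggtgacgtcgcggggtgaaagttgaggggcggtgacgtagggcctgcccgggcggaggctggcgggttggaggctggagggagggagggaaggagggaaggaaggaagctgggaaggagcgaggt
Rtp2, chr16:23930745-23931044, − strand: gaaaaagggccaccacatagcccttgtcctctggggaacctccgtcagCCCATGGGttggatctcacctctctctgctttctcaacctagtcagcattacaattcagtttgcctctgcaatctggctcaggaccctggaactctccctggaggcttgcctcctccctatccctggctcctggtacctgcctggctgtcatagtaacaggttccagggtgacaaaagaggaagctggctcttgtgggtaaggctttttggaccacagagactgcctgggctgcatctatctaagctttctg
Reep1, chr6:71707431-71707730, + strand: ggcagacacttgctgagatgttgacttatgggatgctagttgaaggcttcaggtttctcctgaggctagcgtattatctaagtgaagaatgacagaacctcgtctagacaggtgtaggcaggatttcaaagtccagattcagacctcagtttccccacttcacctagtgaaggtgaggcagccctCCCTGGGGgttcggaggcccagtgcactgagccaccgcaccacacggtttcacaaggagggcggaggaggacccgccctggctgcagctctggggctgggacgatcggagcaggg
The inner letters stood at −202 in the window of Rtp2 and at −65 in that of Reep1, counted to the first letter with the base before the start site as −1, and not in that of Ric8b. In all they were in 4 of the 14 windows, in Gng13, Pde4a, Rtp2 and Reep1, against 13.67% of 32851 RefSeq windows of the same length. The full palindrome, which contains them, was in 0 of the 14 windows and in 0.904% of all windows. The homeodomain motif TAATTA (5.29% of all windows) and the cyclic AMP response motif TGACGTCA (1.79%) were in 0 of the 14 as well. These motifs all read the same on both strands. The windows held 46.0% to 72.0% G and C, and the median of all windows was 52.7%. Gnal and Rtp1 are named only.

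Values are the deposited log2 signals, in which a difference of 1 is a doubling. Genes are called where limma's Benjamini-Hochberg adjusted p over all 19572 probe sets is under 0.05, and differences are GFP+ minus GFP− or 2-octanone minus vehicle, with their standard error (SE) and n = 4 pools per exposure. The array medians were 7.64 to 8.01 and the background probe sets averaged 5.40 to 5.61. Mature OSN markers other than the 10 genes (7 measured, Omp among them) averaged 17.18 to 17.34 in GFP+ and 16.90 to 17.18 in GFP− arrays after 2-octanone, and 17.23 to 17.37 in GFP+ and 16.52 to 17.14 in GFP− arrays after vehicle, so both fractions carried RNA of mature OSNs. Of these 7 markers, 4 were called higher in GFP+ cells and 0 lower. Markers of other cells were lower there: 8 of 8 neutrophil genes (median −7.10), 8 of 11 immature OSN genes (−2.26), 6 of 6 microvillar cell genes (−2.86), 3 of 4 precursor genes (−2.10), 4 of 4 lymphocyte genes (−2.10) and 3 of 6 macrophage genes (−0.73). Sustentacular cell genes split (1 higher and 1 lower of 5), 2 of 3 respiratory ciliated genes were higher, 0 of 3 horizontal basal cell genes were called, and 1 of 2 glial, 2 of 4 guanylyl cyclase D neuron and 1 of 2 vomeronasal genes were lower. Their part in the differences of the 10 genes was not tested, and in bulk samples fewer cells of a type and less RNA per cell cannot be told apart. The neutrophil level also differed among GFP+ arrays. Its mean over 8 genes was 7.26, 7.43, 10.22 and 13.17 in GFP+ arrays after 2-octanone, against 6.86 to 8.67 in GFP+ arrays after vehicle. In GFP− arrays it was 15.08 to 16.46 after 2-octanone and 15.22 to 16.12 after vehicle.

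One array stood apart. In GFP− cells of vehicle replicate 4 all 10 genes had their lowest signal of the 16 arrays, which held for 18.3% of all probe sets and for 49.9% of those with a mean signal of 14 or more. The 10 genes lay a median of −0.60 from the mean of the other 3 arrays of that group, against −0.04 for all probe sets. For probe sets with a mean signal of 17 or more, which hold 3 of the 10 genes, that median was −0.52. It was −0.42 for means of 16 to under 17 (2 genes), −0.24 for 14 to under 16 (4) and −0.18 for 12 to under 14 (1). In the band of 14 to under 16, Rtp2 lay at −0.96, Pde4a at −0.95, Pde1c at −0.56 and Gng13 at −0.34. The highest signal on that array was 18.27, and on the 15 others it was 18.83 to 18.99. Counts of calls among the 10 genes are given with and without it, and sizes without it for some of the genes.

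**Figure D1:**
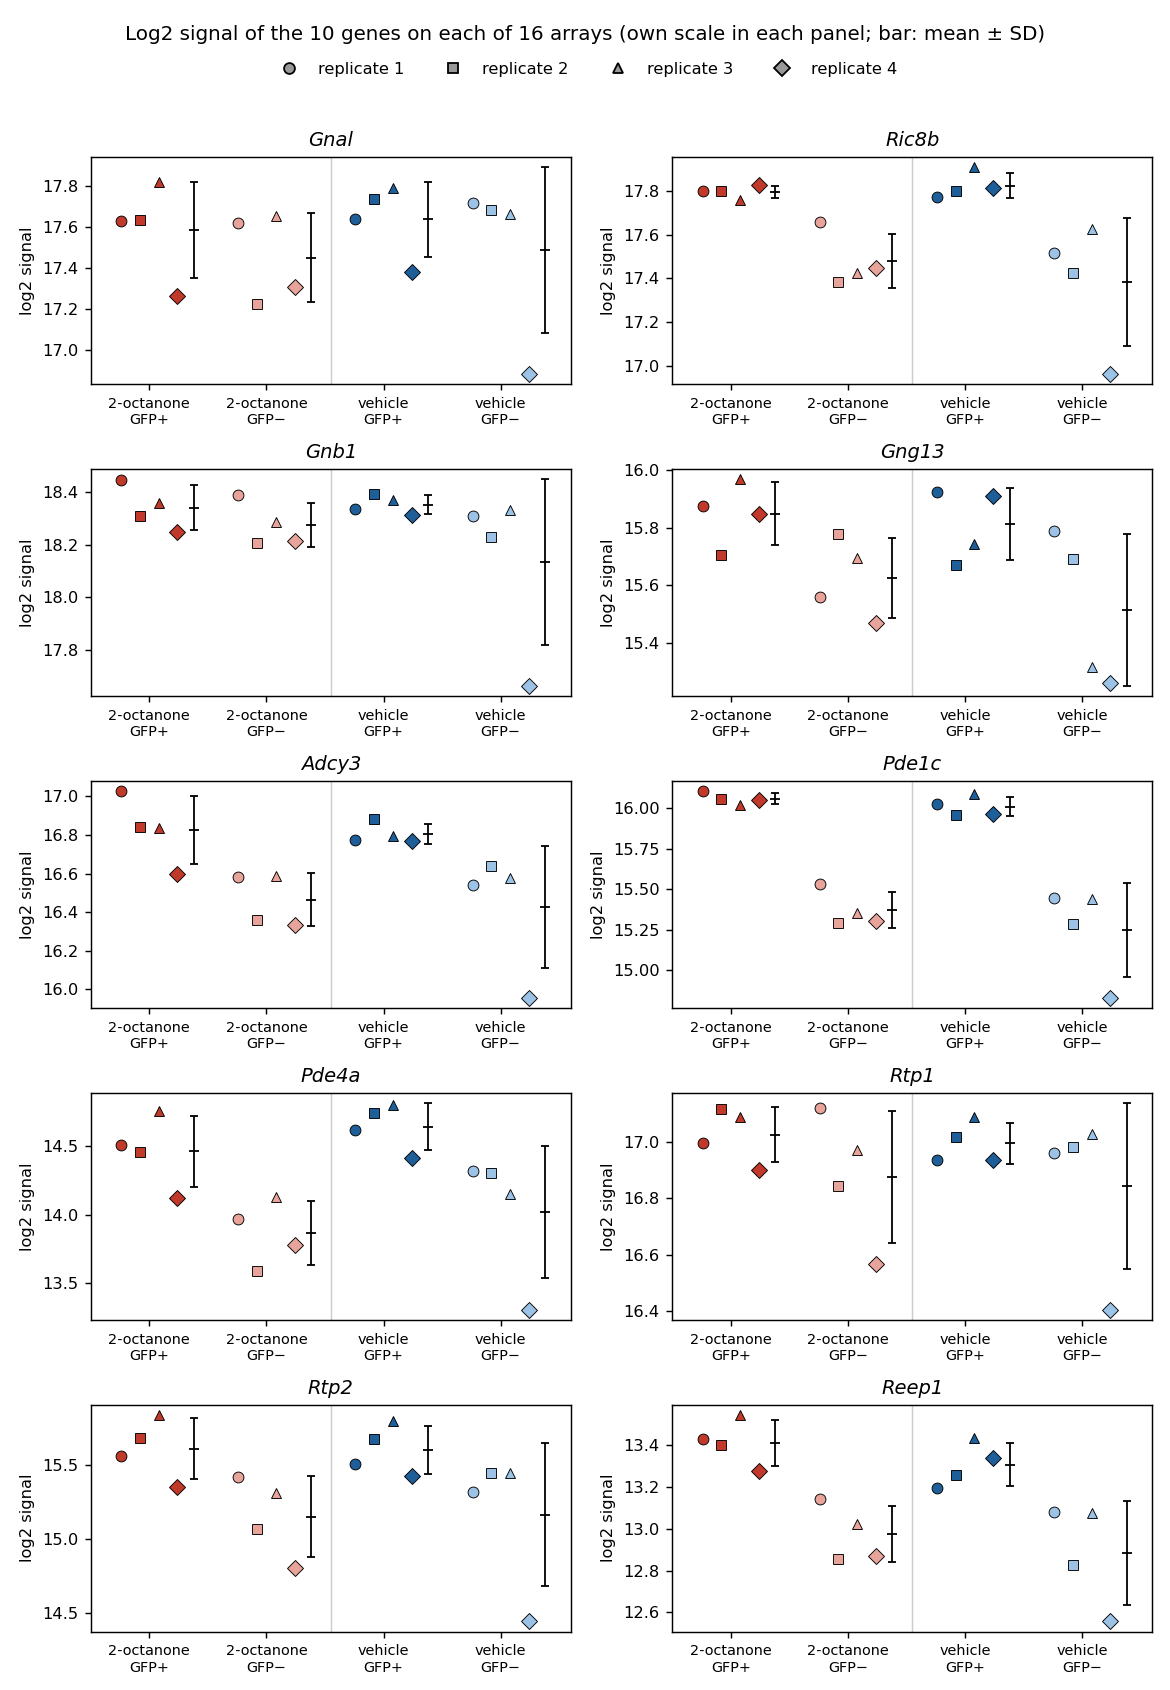
Log2 signal (vertical axes, own scale in each panel) of the 10 genes on each of the 16 arrays, by group, with marker shapes for replicates 1 to 4 and bars for the mean ± SD of 4 arrays. The GFP− array of vehicle replicate 4 is the lowest point in all 10 panels, and the GFP+ points of Ric8b, Pde1c and Reep1 lie above all their GFP− points.

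Setting GFP+ against GFP− cells addresses how signalling RNA differs between cells with and without the reporter. Over both exposures 6 of the 10 genes were higher in GFP+ cells, Pde1c most (0.72), then Pde4a (0.61), Rtp2 (0.45), Reep1 (0.43), Ric8b (0.38) and Adcy3 (0.37), and 0 were lower. The G protein subunit genes Gnal (0.14), Gnb1 (0.14) and Gng13 (0.26) and the chaperone gene Rtp1 (0.15) had positive differences that did not pass the test. Among all probe sets 30.7% were called, 16.7% higher and 14% lower, with 68.4% of the differences positive. The median difference was 0.37 for the 10 genes, 0.30 for the 7 other mature OSN markers and 0.13 for all probe sets. Without the GFP− array of vehicle replicate 4 the same 6 genes were called. The differences of Gnal, Gnb1 and Rtp1 shrank to 0.04, 0.06 and 0.08. Those of the 6 called genes shrank too, to 0.49 for Pde4a and 0.33 for Rtp2. Rtp2 thus lay below Reep1, whose lowest value in any alternative setting was 0.37. The medians without that array were 0.30 for the 10 genes, 0.24 for the 7 markers and 0.11 for all probe sets. With each array centred on its median, all 10 genes and 77.4% of all probe sets were called. Of the called probe sets 86.4% were then higher, against 54.4% in the deposited scale and 64.6% after quantile normalisation, and the median of the 10 genes was 0.65 beside 0.41 for all probe sets.

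Within pools, whose fractions came from the same mice, 7 genes were higher in GFP+ cells in 8 of 8 pools: Ric8b, Gnb1, Adcy3, Pde1c, Pde4a, Rtp2 and Reep1. Of all probe sets 13.5% were higher in 8 of 8 pools. Gnal, Gng13 and Rtp1 were higher in 6 of 8, and 46.2% of all probe sets were higher in 6 or more. Counted by pool, 9, 9, 10 and 9 of the 10 genes were higher in GFP+ cells of 2-octanone replicates 1 to 4, and 8, 9, 10 and 10 in those of vehicle replicates 1 to 4, where 57.6% to 61.7% of all probe sets were higher in a pool. The median difference of the 10 genes was 0.22, 0.45, 0.31 and 0.36 in the 2-octanone pools and 0.17, 0.24, 0.32 and 0.80 in the vehicle pools. Vehicle replicate 4 thus had the widest gap between its fractions, and it holds the low GFP− array.

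**Figure D2:**
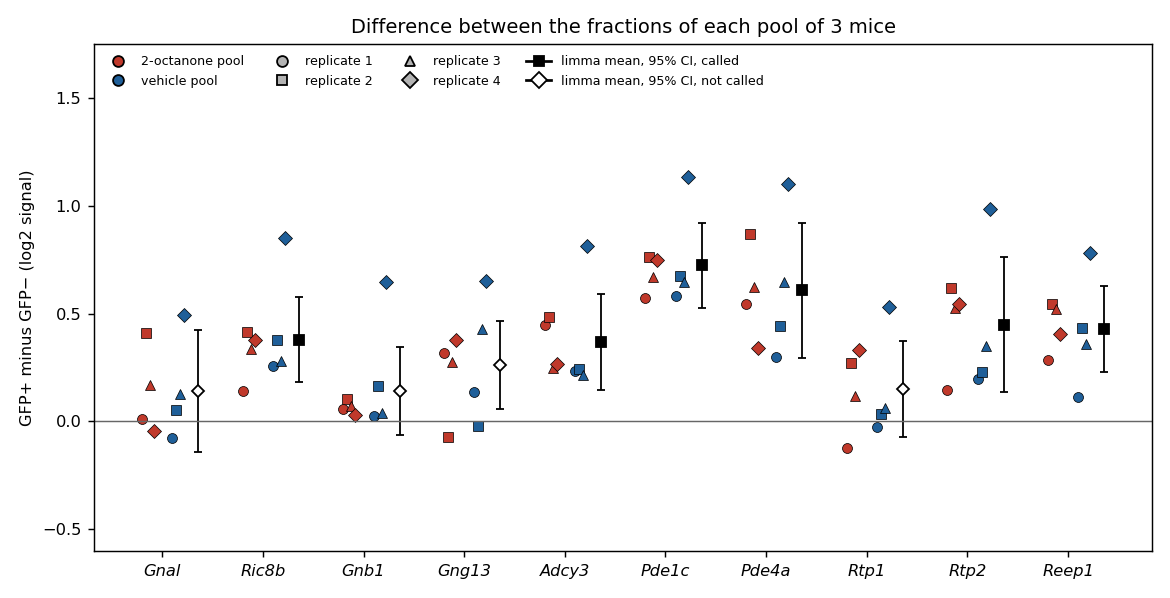
GFP+ minus GFP− (vertical axis, log2 signal) in each pool of 3 mice, red for 2-octanone and blue for vehicle, with the limma mean over both exposures and its 95% confidence interval in black, filled where called. All pools of Pde1c lie between 0.57 and 1.13, and the vehicle replicate 4 pool (blue diamond) is the highest point for each of the 10 genes.

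Of the G protein genes, Gnal did not separate the fractions. It read 17.63, 17.63, 17.82 and 17.26 in GFP+ cells after 2-octanone, against 17.62, 17.22, 17.66 and 17.31 in GFP− cells of the same pools. After vehicle the GFP+ arrays read 17.64, 17.74, 17.79 and 17.38 and the GFP− arrays 17.72, 17.69, 17.67 and 16.89. The groups overlapped in both exposures, with replicate 4 lowest in GFP+ cells of each, and the difference of 0.14 (SE 0.13, 95% CI −0.14 to 0.43) was not called (adjusted p = 0.430). For Ric8b, whose protein acts on Golf, the fractions were apart. Its GFP+ signals were 17.80, 17.80, 17.76 and 17.83 after 2-octanone, against GFP− signals of 17.66, 17.38, 17.42 and 17.45. After vehicle it read 17.77, 17.80, 17.91 and 17.81 in GFP+ cells, against 17.52, 17.42, 17.63 and 16.96 in GFP− cells. All 8 GFP+ arrays lay above all 8 GFP− arrays, which 3 of the 10 genes (Ric8b, Pde1c and Reep1) and 3.18% of all probe sets showed, and the difference of 0.38 (SE 0.09) was called (adjusted p = 0.00560).

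The beta subunit gene Gnb1 had 18.45, 18.31, 18.36 and 18.25 in GFP+ cells after 2-octanone, against 18.39, 18.21, 18.29 and 18.22 in GFP− cells. After vehicle the values were 18.33, 18.39, 18.37 and 18.31 in GFP+ cells, against 18.31, 18.23, 18.33 and 17.67 in GFP− cells. Apart from the last array all lay within a narrow band, and each pool's GFP+ fraction was only slightly above its GFP− fraction, by 0.03 to 0.10 in the 2-octanone pools. The difference of 0.14 (SE 0.10) was not called (adjusted p = 0.271). Gng13, the gamma subunit gene, read 15.88, 15.70, 15.97 and 15.85 in GFP+ cells after 2-octanone, against 15.56, 15.78, 15.69 and 15.47 in GFP− cells. After vehicle it read 15.93, 15.67, 15.74 and 15.91 in GFP+ cells, against 15.79, 15.69, 15.32 and 15.26 in GFP− cells. The groups overlapped, replicate 2 being reversed in both exposures, and at 0.26 (SE 0.10) the gene stood at the threshold (adjusted p = 0.0509). It was called in 7 of 19 alternative settings.

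Adcy3, the cyclase gene, had GFP+ signals of 17.03, 16.84, 16.83 and 16.60 after 2-octanone, against GFP− signals of 16.58, 16.36, 16.59 and 16.33. After vehicle it had 16.77, 16.88, 16.79 and 16.77 in GFP+ cells, against 16.54, 16.64, 16.58 and 15.96 in GFP− cells. The fractions did not overlap within either exposure, although the lowest GFP+ array after 2-octanone (16.60) lay below the highest GFP− array after vehicle (16.64). The difference of 0.37 (SE 0.11) was called (adjusted p = 0.0141), as it was in all 19 alternative settings.

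Pde1c, the calcium- and calmodulin-stimulated phosphodiesterase of OSN cilia, differed most. Its GFP+ signals were 16.11, 16.06, 16.02 and 16.05 after 2-octanone, against GFP− signals of 15.53, 15.29, 15.35 and 15.31. After vehicle GFP+ cells read 16.03, 15.96, 16.09 and 15.96 and GFP− cells 15.45, 15.29, 15.44 and 14.83. The lowest GFP+ array (15.96) was above the highest GFP− array (15.53), and the GFP+ arrays varied little, with means of 16.06 ± 0.03 after 2-octanone and 16.01 ± 0.06 after vehicle (SD, n = 4). The difference was 0.72 (SE 0.09, 95% CI 0.53 to 0.92, adjusted p = 1.26e-05), and 0.65 without the low GFP− array (adjusted p = 4.66e-06). It was called over both exposures in all 19 alternative settings, and in all 20 within each exposure.

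Pde4a, a cyclic AMP phosphodiesterase, read 14.51, 14.46, 14.75 and 14.12 in GFP+ cells after 2-octanone, against 13.97, 13.59, 14.13 and 13.78 in GFP− cells. After vehicle it read 14.62, 14.74, 14.80 and 14.41 in GFP+ cells, against 14.32, 14.30, 14.15 and 13.31 in GFP− cells. Its groups were separate after vehicle and overlapped narrowly after 2-octanone, where GFP+ replicate 4 was low. The spread between pools was wide (0.30 to 1.10 within pools), and the mean difference of 0.61 (SE 0.15) was called (adjusted p = 0.00481).

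Among the chaperone genes, Rtp1 read 16.99, 17.12, 17.09 and 16.90 in GFP+ cells after 2-octanone, against 17.12, 16.84, 16.97 and 16.57 in GFP− cells. After vehicle the values were 16.94, 17.02, 17.09 and 16.94 in GFP+ cells, against 16.96, 16.98, 17.03 and 16.41 in GFP− cells. Its groups overlapped in both exposures, replicate 1 was lower in GFP+ cells in each, and the difference of 0.15 (SE 0.11, adjusted p = 0.292) was not called. Rtp2, its close relative, read 15.56, 15.69, 15.84 and 15.35 in GFP+ cells after 2-octanone, against 15.42, 15.07, 15.31 and 14.81 in GFP− cells. After vehicle it read 15.51, 15.68, 15.80 and 15.43 in GFP+ cells, against 15.31, 15.45, 15.45 and 14.44 in GFP− cells. The GFP+ fraction was higher in each pool although the groups overlapped, and the difference of 0.45 (SE 0.15) was called (adjusted p = 0.0291). Without 2-octanone replicate 2 or 3 it was not (adjusted p = 0.0847 and 0.0629).

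Reep1, which encodes a membrane protein of the endoplasmic reticulum, read 13.43, 13.40, 13.55 and 13.28 in GFP+ cells after 2-octanone, against 13.14, 12.86, 13.03 and 12.87 in GFP− cells. After vehicle it read 13.20, 13.26, 13.43 and 13.34 in GFP+ cells, against 13.08, 12.83, 13.08 and 12.56 in GFP− cells. All 8 GFP+ arrays were above all 8 GFP− arrays, though by as little as 13.20 against 13.14, and the difference of 0.43 (SE 0.09) was called (adjusted p = 0.00216).

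Within exposures fewer genes passed. After 2-octanone, 2 genes were higher in GFP+ cells, Pde1c (0.69, adjusted p = 0.00131) and Reep1 (0.44, adjusted p = 0.0328), where limma called 15.1% of all probe sets, 5.29% higher and 9.8% lower. With the pool as a block Pde4a was called too (0.59, adjusted p = 0.0172, against 0.0670 without it). After vehicle, 4 genes were higher, Pde1c (0.76, adjusted p = 0.000459), Ric8b (0.44, adjusted p = 0.0277), Reep1 (0.42, adjusted p = 0.0351) and Pde4a (0.62, adjusted p = 0.0474), where 18.6% of all probe sets were called, 7.54% higher and 11% lower. Both counts turned on the low GFP− array of vehicle replicate 4, which also enters the shared spread. Without it Pde1c alone was called after vehicle, and Ric8b, Adcy3, Pde1c, Pde4a, Rtp2 and Reep1 were called after 2-octanone. Gnal after vehicle was then −0.051, against 0.15 with it. Other pools mattered too. After 2-octanone Pde1c alone was called when any 1 of the 2-octanone pools was left out, and when vehicle replicate 2 was. After vehicle Pde1c alone was called without vehicle replicate 2, and 2 genes were called without 2-octanone replicate 2 or 3 or vehicle replicate 1 or 3. Within exposures, the GFP+ arrays lay above all GFP− arrays for 4 genes after 2-octanone (Ric8b, Adcy3, Pde1c and Reep1) and for 5 after vehicle (the same 4 and Pde4a), against 9.06% and 11.3% of all probe sets. The medians of the 10 genes were 0.34 after 2-octanone and 0.40 after vehicle, against 0.12 for all probe sets in each. For the 7 other mature OSN markers they were 0.29 and 0.31.

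The comparison of 2-octanone with vehicle asks whether the signals of these genes differed between the exposures within each sorted fraction. Cells were sorted by the reporter, so a change in which cells enter a fraction and a change of RNA per cell cannot be told apart. The neutrophil level also differed among GFP+ arrays, as given above, and its part was not tested. None of the 10 genes was called. In GFP+ cells the differences ran from −0.18 for Pde4a (95% CI −0.62 to 0.26) to 0.11 for Reep1 (95% CI −0.17 to 0.39). Their median was 0.014. Leaving out each pool in turn, the Pde4a value ran from −0.28 to −0.067 and the Reep1 value from 0.062 to 0.15. Limma called 0 of 19572 probe sets (0%), with 618 at an unadjusted p under 0.05, 345 of them higher and 273 lower, and none of the 10 genes among them. In GFP− cells they ran from −0.15 for Pde4a (95% CI −0.59 to 0.29) to 0.14 for Gnb1 (95% CI −0.15 to 0.43), and 1 probe set was called (0.00511%), with 477 at an unadjusted p under 0.05. The Gnb1 value rests on the low vehicle array, without which it was −0.015. Without that array 1 of the 10 genes was positive in GFP− cells (median −0.079), against 7 with it (median 0.063), and 0 were called either way. Over the 10 genes and both fractions the 95% intervals reached down to −0.62 (Pde4a) and up to 0.45 (Rtp2), both in GFP+ cells.

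**Figure D3:**
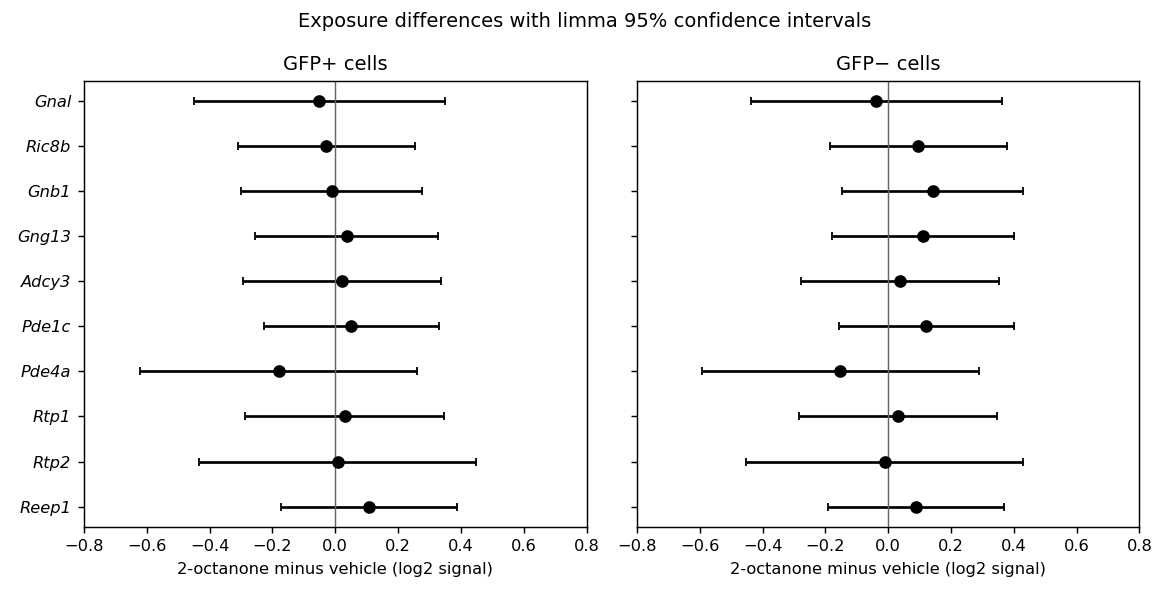
2-octanone minus vehicle (horizontal axis, log2 signal) for the 10 genes in GFP+ cells (left) and GFP− cells (right), points with limma 95% confidence intervals. Each interval includes 0, and those of Pde4a and Rtp2 are the widest.

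Whether GFP+ minus GFP− itself differed between the exposures was tested as an interaction (2-octanone minus vehicle). For the 10 genes it ran from −0.15 for Gnb1 (95% CI −0.56 to 0.26) to 0.02 for Rtp2 (95% CI −0.60 to 0.64). Limma called 0 of 19572 probe sets (0%), with 465 at an unadjusted p under 0.05 and none of the 10 genes among them. These values also rest on the low GFP− array of vehicle replicate 4. Without it all 10 differences were positive (median 0.13, with Gnb1 at 0.0038), against 2 with it (median −0.022), and 0 of the 10 genes were called either way. The within-exposure calls named above are therefore not shown to differ between the exposures. Pde1c, called in both, had 0.69 after 2-octanone and 0.76 after vehicle.

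Several of these probe sets read near the top of the arrays. Gnb1 stood 0.52 to 0.69 below the highest signal of its array, with 3 to 5 probe sets brighter than it. Ric8b stood 1.01 to 1.49 below (7 to 25 brighter) and Gnal 1.12 to 1.61 below (10 to 31 brighter). Next came Rtp1 (1.79 to 2.29 below), Adcy3 (1.94 to 2.53), Gng13 (2.98 to 3.57), Pde1c (2.80 to 3.63), Rtp2 (3.12 to 4.06) and Pde4a (4.12 to 5.24), and Reep1 was farthest from the top (5.44 to 6.09). Among the 48 probe sets with a mean signal of 17 or more, 2 were called higher and 2 lower in GFP+ cells (4.17% each), and the 95th percentile of their differences was 0.28. Ric8b, at 0.38, lay above that percentile, and Gnal and Gnb1 lay below it. Among the 721 probe sets with a mean of 14 to under 16, which hold Gng13, Pde1c, Pde4a and Rtp2, 15.0% were called higher and the 95th percentile was 0.42, which is under the differences of Pde1c, Pde4a and Rtp2 and above that of Gng13. Adcy3 (0.37) lay under the 95th percentile of 0.41 for probe sets with a mean of 16 to under 17, as did Rtp1, and Reep1 (0.43) under that of 0.60 for means of 12 to under 14. So with all 16 arrays 2 of the 6 called genes were within the range of most probe sets of like brightness. These placings include the low GFP− array of vehicle replicate 4. Without it the Rtp2 difference was 0.33, under the 0.42 of its band. The percentiles were not computed again without that array. Whether a ceiling limits the differences of the brightest genes was not tested.

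**Figure D4:**
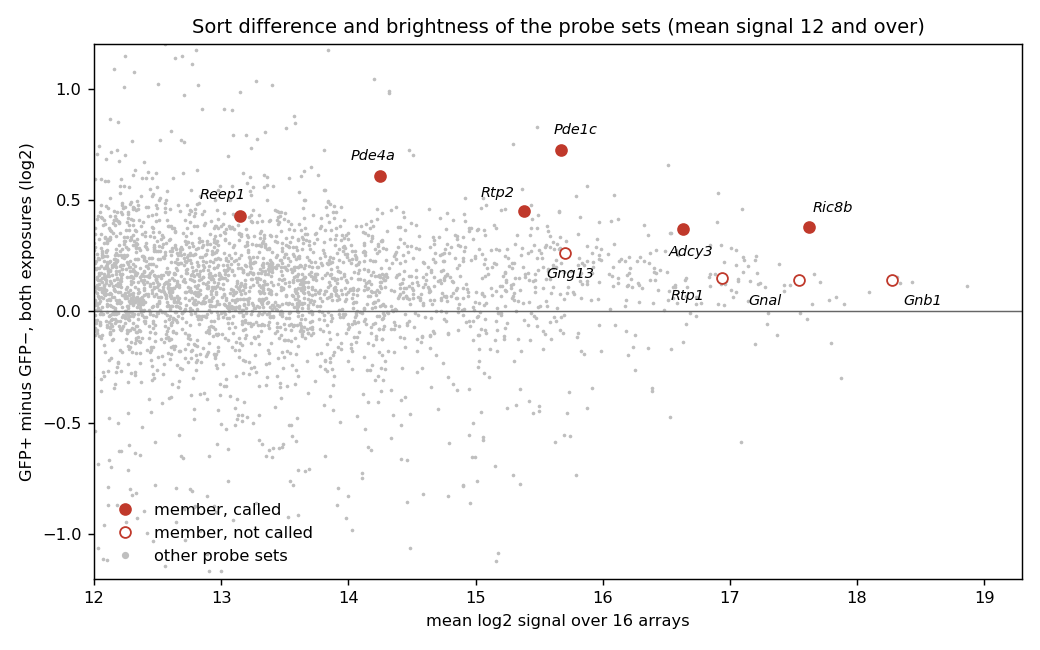
GFP+ minus GFP− over both exposures (vertical axis, log2) against mean log2 signal over 16 arrays (horizontal axis) for probe sets with a mean of 12 or more. The 10 genes are red, filled where called, and the axis leaves out differences beyond its ends. Pde1c, Pde4a, Rtp2 and Ric8b lie above most grey points of like brightness, and Gnal, Gnb1 and Rtp1 lie among them. All values include the low GFP− array of vehicle replicate 4.

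Relatives of the 10 genes differed from them in direction in many cases. Of 23 other G protein subunit and Ric8 genes, 2 were called higher in GFP+ cells and 9 lower. Their median was −0.15, beside 0.13 for all probe sets. After median centring it was 0.13, beside 0.41 for all probe sets, with 8 called higher and 9 lower. Lower were Gnas, the stimulatory alpha subunit gene of most cells (−2.91, SE 0.21), and the inhibitory alpha subunit gene Gnai2 (−3.81). So was the gamma subunit gene Gng8 (−4.05), also counted above among the immature OSN genes. Gnai2 was also counted above, as the vomeronasal gene that was lower, and the other, Gnao1 (0.15), was not called. Gnb5 (0.46) and Gngt1 (0.46) were higher, Gngt1 with a mean signal of 4.51, under that of the background probe sets. Ric8a, the relative of Ric8b, differed by −0.15 (adjusted p = 0.217). Markers of several other cell types, though not of all, were lower in GFP+ cells as well, by the values given above. Of the respiratory ciliated genes 2 of 3 were higher. The part of these cell types was not tested.

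Of 21 other cyclase and phosphodiesterase genes, 2 were higher and 6 lower (median 0.04), and 5 were higher with the pool as a block. Pde7b, a cyclic AMP phosphodiesterase gene with a signal of 16.81 ± 0.12 in GFP+ and 16.14 ± 0.19 in GFP− cells after 2-octanone (SD, n = 4), was higher (0.66, SE 0.11, adjusted p = 0.000286), and so was Pde10a (0.70). Pde2a, also counted above among the guanylyl cyclase D neuron genes, was lower (−3.22, SE 0.21), as were Pde8a (−1.94) and Pde3b (−1.77). In that marker list Car2 was lower too (−0.65). Gucy2d (0.04) and Cnga3 (0.03) were not called, and their group means lay under the background probe sets. Of 7 other Rtp and Reep genes, 0 were higher and 3 lower, Reep5 (−2.21, SE 0.14), Reep4 (−1.50) and Rtp4 (−0.85), and 1 was higher with the pool as a block. The median was −0.15, beside 0.13 for all probe sets. After median centring it was 0.13, beside 0.41 for all probe sets, with 3 called higher and 2 lower. Of 18 other genes of the transduction cascade, 6 were higher and 2 lower (median 0.14, beside 0.13 for all probe sets), 5 of the list being mature OSN markers as well. The sodium-calcium exchanger gene Slc8a1 (1.16, SE 0.19), the exchanger gene Slc24a4 (0.56), the channel genes Cngb1 (0.56), Ano2 (0.53) and Cnga2 (0.30) and the kinase gene Camk2a (0.46) were higher. Pde2a, named above, and the receptor kinase gene Grk3 (−0.75, SE 0.16) were lower. Grk3 had group means of 5.64 to 6.65, close to the background probe sets. Several relatives in these counts, among them Adcy8, Pde8b, Rtp3 and Reep2, had group means under the background probe sets.

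**Figure D5:**
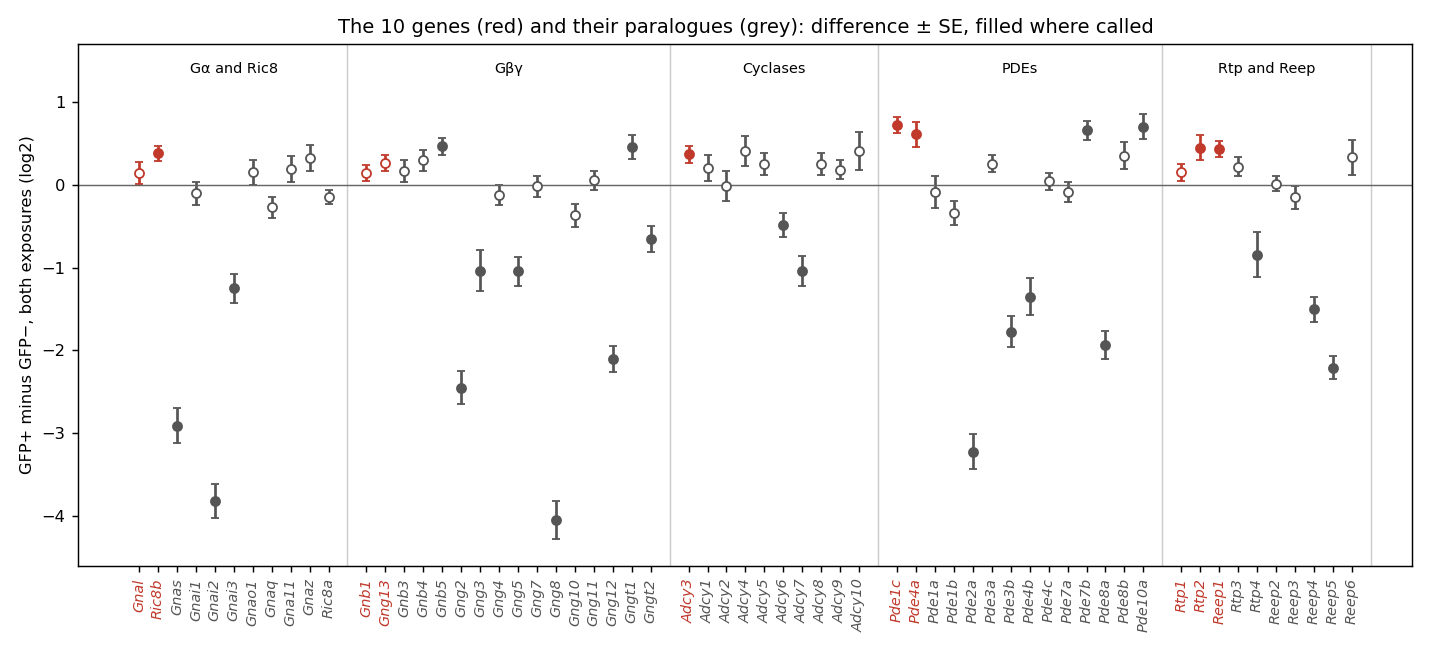
GFP+ minus GFP− over both exposures (vertical axis, log2, limma difference ± SE) of the 10 genes (red) and their relatives (grey), grouped by family, filled where called. The 10 genes lie between 0.14 and 0.72, while relatives reach from −4.05 for Gng8 to 0.70 for Pde10a.

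By root mean square difference of profiles over the 16 arrays, each centred on its own mean, the genes most like Pde1c were Eml1 (0.11), the chloride channel gene Ano2 (0.12) and Pdgfrl (0.13), where Pde1c itself varied with an SD of 0.40. Those most like Gnb1 were Stoml3 (0.05), Omp (0.05) and Stom (0.06), all with signals near the top of the arrays. These are descriptions of 16 arrays that share their pools and the low GFP− array of vehicle replicate 4.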

How the data were processed

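The study profiled 16 cell fractions on Clariom S mouse arrays from 50 to 100 ng of RNA, per the labels' protocols. The deposited table holds log2 signals of 28846 probe sets, made with Affymetrix Expression Console per the submitters' processing notes. The authors' algorithm is not given in the sources used here, and the log base was read from the range of the values. Leaving out 6640 controls and 2634 probe sets without a gene name left 19572 to test, named through GEO's platform annotation and updated by Entrez identifier.

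Limma 3.58.1 (R 4.3.3) estimated 4 group means over all 16 arrays with lmFit and eBayes (12 residual and 4.19 prior degrees of freedom). Two-sided p-values were adjusted over the whole table by Benjamini-Hochberg, and calls were made under 0.05. The code was checked on simulated data. With 4 arrays a group, array number limits precision.

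The members and lists were chosen with earlier results of these data known. All 10 genes were named. Of the lists, called genes of largest size were named, plus Ric8a, chosen after its values were seen. Profiles were matched for the members of largest and, no member being lower, smallest difference.

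Each pool was split into its 2 fractions, so the pool pairs them by origin. Residuals of paired fractions correlated across probe sets at 0.26, −0.0049, 0.32 and 0.46 in 2-octanone pools 1 to 4 and at 0.086, 0.22, 0.30 and 0.44 in vehicle pools. Alternatives were this pairing, quantile normalisation, median centring, a filter on dim probe sets, adding unnamed probe sets, trended or robust variance, array weights, only the arrays compared, a threshold of 0.1, leaving out pools and, chosen after seeing the data, leaving out 1 array.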

Additional observations from a re-analysis of the deposited data

Results flagged for a closer look

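Of 60 sets of 4 values (the signals of each gene in each group and its pool differences in each exposure), 9 held a value whose gap to the nearest other exceeded Dixon's limit, where chance gives about 1 in 20. All 9 come from vehicle replicate 4. In its GFP− cells the low value was 16.89 for Gnal, 17.67 for Gnb1, 15.96 for Adcy3, 13.31 for Pde4a, 16.41 for Rtp1 and 14.44 for Rtp2. The matching GFP+ minus GFP− difference in that pool was high for Adcy3 (0.81), Pde1c (1.13) and Rtp1 (0.53). These sets share 1 array and are not separate observations.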

How the results depend on the processing

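Over both exposures 6 members were called, 10 after median centring, and 5 to 7 in the other alternatives. Ric8b, Adcy3, Pde1c, Pde4a and Reep1 were called in all 19. After vehicle 4 were called. The count was 10 after median centring, 2 with array weights, 1 with only the arrays compared, 1 without both replicate 4 pools, 1 without the GFP− array of vehicle replicate 4 and 1 to 4 leaving out each pool in turn. After 2-octanone 2 were called. The count was 8 after median centring, 4 after quantile normalisation, 4 without both replicate 4 pools, 6 without that array and 1 to 5 leaving out each pool. In the exposure and ratio comparisons 0 of the 10 were called in every setting run.

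Directions turned for Gnal after vehicle (−0.051 without that array, 0.035 to 0.23 leaving out each pool). For Gnb1, 2-octanone minus vehicle in GFP− cells was −0.028 after quantile normalisation, −0.015 without that array and −0.015 to 0.21 leaving out each pool. Its ratio change was 0.018 after quantile normalisation, 0.0017 without both replicate 4 pools, 0.0038 without that array and −0.22 to −0.0097 leaving out each pool. The ratio change of Rtp2 was −0.024 after median centring and −0.062 to 0.20 leaving out each pool. Without that array most members turned in 2 comparisons. The ratio change was positive for 10 members, against 2 with it, and 2-octanone minus vehicle in GFP− cells for 1, against 7. None of these was called, and the cause was not tested beyond the array named.

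With the pool as a block (replicate block) 7038 probe sets were called over both exposures, and it changed no member's call but that of Pde4a after 2-octanone (3 members called). In the exposure comparisons the block was the replicate number, which no label ties to shared litters or days. Residuals of equal numbers correlated at 0.19, 0.17, 0.26 and 0.43 in GFP+ cells and at 0.34, −0.062, 0.35 and 0.52 in GFP− cells. Those of unequal numbers ran from −0.28 to 0.089 in GFP+ cells and from −0.56 to 0.34 in GFP− cells. Whether equal numbers share a batch was not tested. With this block 0 members were called in the exposure comparisons. A second probe set per gene could not be tried, since each member has 1. Each group holds 4 arrays. Gnb1, Ric8b and Gnal read near the array top, and whether that limits their differences was not tested.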
